A study of Homo sapiens with 8 samples.

Results

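The CCR4-NOT deadenylase and decapping genes are described here through the places on their transcripts where Ago2 was crosslinked. Members were all peaks whose listed gene symbol starts with CNOT or is EDC3, EDC4, DCP1A, DCP1B or DCP2. The rule found 42 of 22506 peaks and 11 of 6326 genes, and used no measured value. The genes were CNOT1, CNOT2, CNOT3, CNOT4, CNOT6, CNOT6L, CNOT7, DCP1A, DCP2, EDC3 and EDC4. CNOT8, CNOT10, CNOT11 and DCP1B had no listed peak under these symbols. The number of reads behind each peak could be worked back from the deposited logarithms, library by library, for all 42 peaks and for 22492 of the 22506.

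Ago2, the Argonaute protein that carries microRNAs, was pulled down with the RNA crosslinked to it (CLIP) in 293S cells, a human embryonic kidney line of HEK293 origin. Cells of the treated group were exposed to emetine, an alkaloid that stops translation elongation, at 20 µg/mL over 60 minutes, and cells of the control group received no treatment. Each group was a single culture, of which 1 aliquot went to RNA-seq and 3 went to CLIP with Ago2 antibodies of different manufacturers, the same ones in both groups. There were therefore 3 CLIP libraries and 1 RNA library per group, and every p-value below measures the spread between aliquots and antibodies, not between cultures.

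CCR4-NOT is the main cytoplasmic machine that shortens the poly(A) tail of mRNAs. It is brought to microRNA targets by the GW182 (TNRC6) partners of Argonaute, and tail shortening is followed by removal of the cap by DCP2 and its activators and by decay of the transcript from its 5' end. The proteins named here thus act downstream of Ago2, whereas the data show Ago2 on the mRNAs that encode them.

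Within each group the libraries are numbered from the shallowest, library 1, in which a single read has the highest normalised value, and antibodies were not assigned to them. Where 3 values of a group are given, they follow the order of libraries 1 to 3. Listed peaks held 40689, 104578 and 96600 emetine reads, against 39622, 117502 and 103175 control reads. The member peaks held 29, 185 and 127 of the emetine reads, against 36, 272 and 94 of the control reads. Intervals below are exact binomial 95% intervals on read totals scaled by the depth of the libraries. They reflect counting alone, and reads copied by amplification are no separate molecules. A log2 change is the difference, emetine minus control, of the mean of log2(normalised reads + 1) over 3 libraries each.

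Of the 42 peaks, 30 (71.4%) lay in 3' UTRs, against 57.6% of all peaks. A further 11 (26.2%) lay in coding sequence, against 33.2%, and 1 (2.38%) in a 5' UTR, against 4.95%. No member peak lay in an exon of a noncoding transcript, where 4.24% of all peaks were listed. Peaks are numbered below from the 5' to the 3' end of each transcript, and positions are on hg19 as the authors listed them.

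The 3' UTRs of these genes were searched for the seed letters of microRNAs that are abundant in cells of HEK293 type, and 3 of these are shown. Their letters occur in genes with several member peaks, as do those of other families searched. The mature sequences are from RefSeq (GRCh38.p14), with the seed, bases 2 to 8, in capitals.
hsa-miR-17-5p: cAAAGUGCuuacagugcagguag
hsa-miR-19b-3p: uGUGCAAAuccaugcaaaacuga
hsa-miR-16-5p: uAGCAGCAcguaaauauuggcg
The complement of each seed was searched on the transcript strand of 1 annotated transcript per gene (GENCODE release 29, GRCh38), as GCACTTT for miR-17, TTTGCAC for miR-19 and TGCTGCT for miR-16. The miR-17 and miR-19 letters can overlap. CNOT7 and EDC3 had matches to these letters that are not shown here. For each of 5 other genes, the first match of the first of these families that has one is shown with its surroundings, the matched letters in capitals.
CNOT4, miR-17 letters: ctctctcttttGCACTTTtgcactttctt
CNOT6, miR-17 letters: tgggattattaGCACTTTcaaacttaggg
CNOT6L, miR-17 letters: aaacttttcatGCACTTTactgtttctag
DCP2, miR-19 letters: agaaacacgagTTTGCACtgtaaatgcag
DCP1A, miR-16 letters: aagctttgttaTGCTGCTattgatctgcc

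These stretches lie on GRCh38 at chr7:135388192-135388220 (minus strand) for CNOT4, chr5:180577232-180577260 (plus) for CNOT6 and chr4:77718980-77719008 (minus) for CNOT6L. Those of DCP2 and DCP1A lie at chr5:113013634-113013662 (plus) and chr3:53286468-53286496 (minus). In CNOT4 the miR-17 letters occur 2 times within 29 bases, and each copy overlaps a match to miR-19. Among 11 seed families searched, 7 had a match in the 3' UTR of CNOT6, 5 in CNOT6L, 4 in DCP2, 3 each in CNOT4, CNOT7 and DCP1A, 1 in EDC3 and 0 in CNOT2. Such matches are common in long 3' UTRs. Of annotated 3' UTRs within 20% of the length, 35.7% held the miR-17 letters for CNOT4, 49.2% for CNOT6 and 64.9% for CNOT6L. The share was 45.4% for the miR-19 letters and DCP2, and 44.7% for the miR-16 letters and DCP1A. A match is a description of the letters. Whether one lies inside an Ago2 peak was not analysed here, because the peaks are on hg19 and the transcripts on GRCh38.

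The total of Ago2 reads on these transcripts differed between the groups by less than the spread between libraries. Together the member peaks held 341 reads with emetine, against 402 in the control, a depth-scaled ratio of 0.943 (0.813 to 1.09), beside 1.03 for all peaks. Their share of all reads in listed peaks was 0.0713%, 0.177% and 0.131% with emetine, against 0.0909%, 0.231% and 0.0911% in the control. The shares of the 2 groups overlapped. The mean was 0.127 ± 0.0530% with emetine and 0.138 ± 0.0811% in the control (SD, n = 3 each), a difference of -0.0113 percentage points (two-sided exact permutation test, p = 0.8, where 0.1 is the smallest p this design allows).

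Peak by peak, no member passed the test. The number with an adjusted p under 0.05 (limma, Benjamini-Hochberg over all peaks) was 0 of 42, and it was also 0 (0.0%) of the 22492 peaks tested. At an unadjusted p under 0.05 the count was 0 of 42, beside 239 (1.06%) of all peaks, of which those higher with emetine made up 0.765% and those lower 0.298% of the peaks tested. The log2 change was above 0 for 20 member peaks and below 0 for 22, and 50.2% of all peaks were above 0 and 49.8% below. The median change was -0.23 over the member peaks and 0.01 over all peaks, with a median standard error of 2.04 in each. The member peaks ranged from -3.38 to 3.57, and each lay within 2 standard errors of 0. The median of the authors' deposited ratio, which is relative to RNA, was -0.24 on the log2 scale for member peaks and 0.04 for all peaks.

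The more visible property of these peaks was how unevenly their reads were spread over the libraries. Each held 11 to 38 reads over the 6 libraries, with a median of 15, and 15 was also the median over all peaks. No peak with recovered reads had fewer than 11, so one without reads in a group was listed through the reads of the other. The fold bound and interval given below for such a peak, or for a total that holds such peaks, partly reflect that listing. They are no test of a change. In 16 of the 42 (38.1%) every read came from 1 library, against 26.5% of all peaks and 28.5% of those with no more than 38 reads. Reads came from at most 2 libraries in 30 (71.4%), against 54.7% of all peaks and 58.8% of those with no more than 38 reads. Only 5 (11.9%) had reads in 4 or more libraries, against 24.9% of all peaks and 19.6% of those with no more than 38 reads. In the median member peak, 91.5% of the reads came from the best covered library, against 78.6% over all peaks and 81.8% over those with no more than 38 reads. These shares are descriptions, and no test was made of them.

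**Figure D1:**
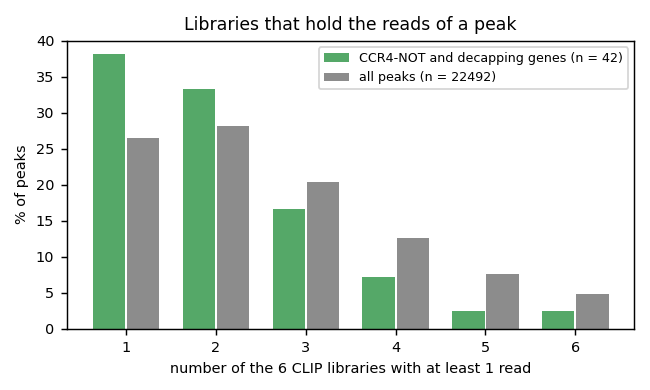
Share of peaks (%, vertical axis) by the number of CLIP libraries in which they had at least 1 read (horizontal axis, 1 to 6), for the 42 peaks of CCR4-NOT and decapping genes and for all 22492 peaks with recovered reads. The member peaks have 38.1% in the class of 1 library against 26.5% of all peaks, and 1 peak in the class of 6.

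Of the 16 peaks with reads from a single library, 3 each came from emetine libraries 2 and 3, 7 from control library 2 and 3 from control library 3. No such peak came from the shallowest library of either group. Over all peaks with reads from 1 library, which number 5950, 1487 and 1192 came from emetine libraries 2 and 3 and 2081 and 1178 from control libraries 2 and 3, so the member counts lie near the general pattern. Seen by group, 14 member peaks (33.3%) had no read with emetine, against 20.2% of all peaks, and 11 (26.2%) had no read in the control, against 17.7%. Among peaks with no more than 38 reads these shares were 21.7% and 19.0%. The libraries of the 2 groups did not overlap in 1 member peak with emetine higher, in DCP2, and in 0 with emetine lower. Over all peaks these shares were 2.54% and 1.43%.

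**Figure D2:**
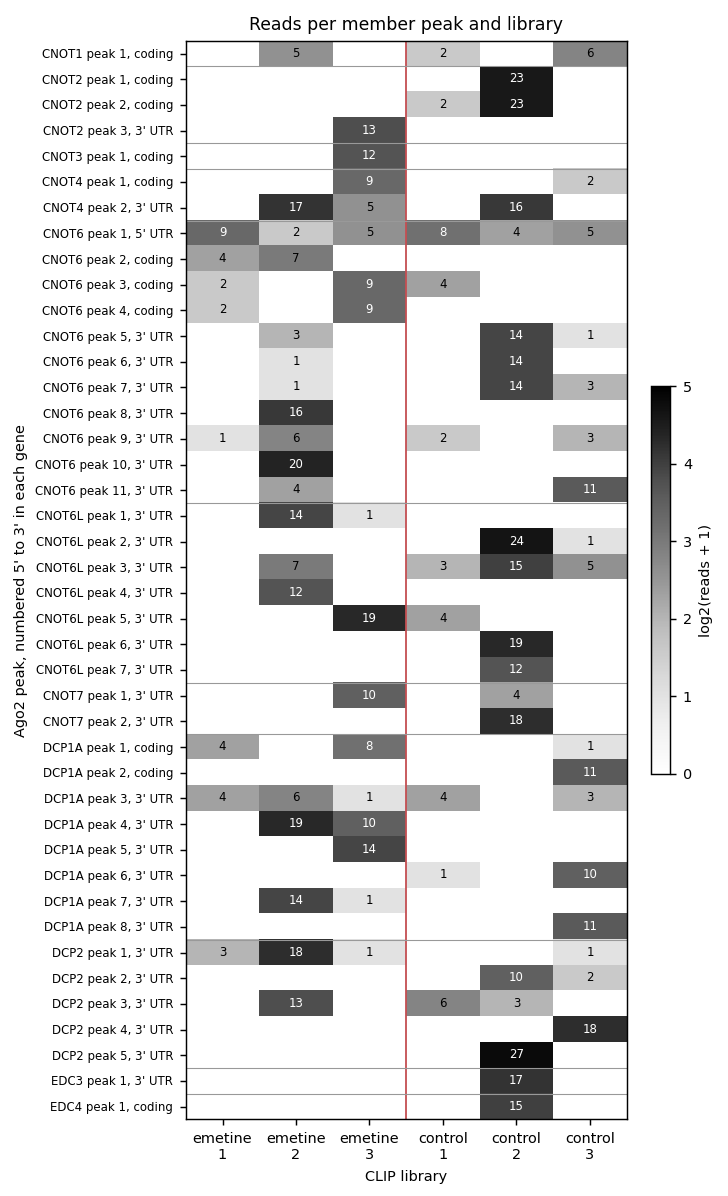
Reads recovered for each of the 42 member peaks (down the page, by gene and numbered 5' to 3') in each CLIP library (across, emetine libraries 1 to 3 left of control libraries 1 to 3), with the number of reads in each cell. CNOT6 peak 1, in the 5' UTR, is the one row with reads in all 6 libraries, and 16 rows have reads in a single library.

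The deadenylases of CCR4-NOT are of 2 kinds: CNOT6 and CNOT6L, paralogs of each other and related to the yeast nuclease Ccr4, and CNOT7, related to yeast Caf1. Their 20 peaks held 164 reads with emetine, against 188 in the control, a ratio of 0.969 (0.781 to 1.20), and 10 peaks were above 0 and 10 below.

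CNOT6 had 11 peaks, on chromosome 5. Summed over them it had 18, 60 and 23 emetine reads, against 14, 46 and 23 control reads. The normalised sums of the groups overlapped, with a log2 change of 0.39 (SE 0.96) and a ratio of totals of 1.35 (1.00 to 1.83). The peak in the 5' UTR, at chr5:179921715-179921738, had 9, 2 and 5 reads with emetine and 8, 4 and 5 in the control, a ratio of 1.05 (0.494 to 2.20). It was the one member peak with reads in every library, and its totals were 16 and 17.

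The coding peaks of CNOT6 shared a direction, and its 3' UTR peaks did not, with 3 above 0 and 4 below. Over all peaks of the series, the median log2 change was 0.29 in coding sequence and -0.17 in 3' UTRs. The 3 coding peaks of CNOT6 together had 8, 7 and 18 reads with emetine and 4, 0 and 0 in the control. Their ratio was 9.17 (3.26 to 35.6), and all 3 had a log2 change above 0. Peaks 2 and 4 had 11 reads each, all with emetine, so this interval partly reflects their listing. After normalisation the libraries of the groups overlapped, because the 4 control reads all lay in control library 1, where a single read has the highest value. Peak 2, at chr5:179976952-179977025, had 4, 7 and 0 reads with emetine and 0 in each control library, a log2 change of 3.22 (SE 2.13), at least 4.07-fold higher when the control is set at a floor of 3 reads in total, with an interval of the ratio that starts at 2.79. In the 7 peaks of the 3' UTR there were 52 reads with emetine, against 62 in the control, a ratio of 0.932 (0.632 to 1.37). There, control library 2 held most reads of the 3 upstream peaks, 14 in each, of which peaks 6 and 7 overlap and can share reads. A shared read counts more than once in every total and interval that holds both peaks. Emetine library 2 alone held the 16 reads of peak 8 and the 20 of peak 10. The 3' UTR thus held a run of peaks led by control library 2 and, downstream of it, peaks 8 to 10, led by emetine library 2. Peak 11, the last, was led by control library 3, with 0, 4 and 0 reads with emetine and 0, 0 and 11 in the control.

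CNOT6L had 7 peaks, all in the 3' UTR on chromosome 4. Their sum was 0, 33 and 20 emetine reads, against 7, 70 and 6 control reads. The groups overlapped, with a log2 change of -1.65 (SE 1.52) and a ratio of 0.710 (0.493 to 1.01). Peak 3, at chr4:78640398-78640436, had 0, 7 and 0 reads with emetine and 3, 15 and 5 in the control. Its log2 change was -3.11 (SE 1.92, adjusted p = 0.784 in limma), and the control libraries all held reads where 1 emetine library did. Upstream of it, peak 1 had 0, 14 and 1 reads with emetine and none in the control, a log2 change of 2.45 (SE 2.10), and peak 2, at chr4:78640545-78640569, had none with emetine and 0, 24 and 1 in the control, a log2 change of -2.63 (SE 2.12). The other 4 peaks were again each led by 1 library. Peak 4 had 12 reads in emetine library 2, and peak 5 had 19 in emetine library 3 beside 4 in control library 1. Peaks 6 and 7 had 19 and 12 reads, all in control library 2.

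CNOT7 had 2 peaks in its 3' UTR, on chromosome 8. Their sum was 0, 0 and 10 reads with emetine and 0, 22 and 0 in the control. The upstream peak held the 10 emetine reads beside 4 control reads, and the downstream peak, at chr8:17087562-17087593, held 18 reads of control library 2 and none with emetine. The gene's log2 change was -0.37 (SE 2.41), and its ratio of totals was 0.505 (0.214 to 1.11).

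**Figure D3:**
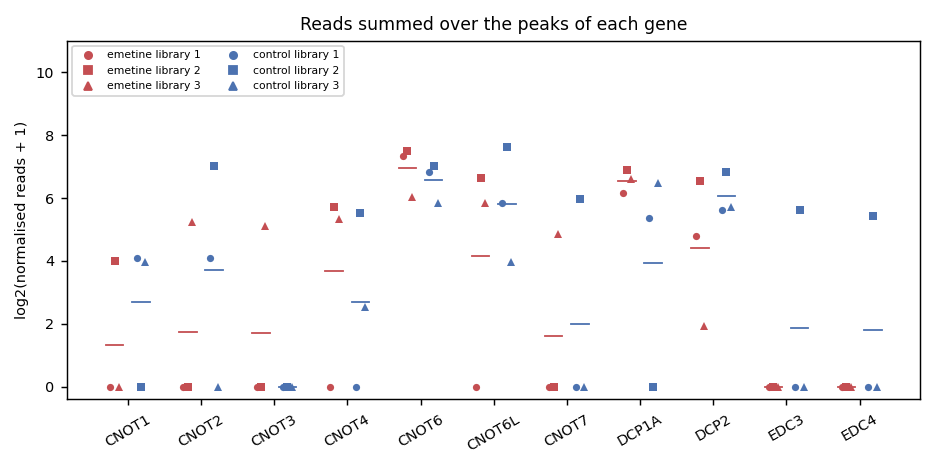
Sum of the normalised reads of each gene's peaks, as log2(normalised reads + 1) (vertical axis), for the 11 genes; points are single libraries and short lines their means, emetine left of control. The libraries of the groups overlap in all 11 genes, and the 6 points of CNOT6 span the smallest range.

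The other CCR4-NOT genes had 7 peaks with 61 reads with emetine, against 74 in the control, a ratio of 0.916 (0.642 to 1.30). CNOT1 encodes the scaffold on which the complex is built. Its single peak, in coding sequence at chr16:58590833-58590856, had 0, 5 and 0 reads with emetine and 2, 0 and 6 in the control, a ratio of 0.694 (0.179 to 2.41). CNOT2 and CNOT3 encode the pair of NOT-box subunits that dock on CNOT1. CNOT2 had 2 coding peaks on chromosome 12 with none of their 48 reads in the emetine libraries. The upstream one, at chr12:70736078-70736087, had 23 reads of control library 2, and the other, at chr12:70737907-70737923, had 2, 23 and 0 reads in control libraries 1 to 3 and a log2 change of -3.38 (SE 2.13, adjusted p = 0.784 in limma). The total of these coding peaks was at least 14.4-fold lower with emetine, on the floor of 3 reads over 3 libraries, with an interval of the ratio that ends at 0.0888, but 46 of the 48 reads were those of 1 library. The 2 peaks are 9 and 16 nt wide and held the same number of reads, 23, in that library. Whether they share reads was not tested, and the bound and intervals for CNOT2 count them as separate. Its 3' UTR peak had the opposite pattern, with 0, 0 and 13 reads with emetine and none in the control. Summed, CNOT2 had 0, 0 and 13 reads with emetine and 2, 46 and 0 in the control, a log2 change of -1.96 (SE 2.38) that was -0.30 without control library 2. The counting interval of its ratio, 0.301 (0.150 to 0.564), lay below 1, while the libraries of the groups overlapped.

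CNOT3 had 1 coding peak, at chr19:54653424-54653464, whose 12 reads were all in emetine library 3. CNOT4, a RING-type ubiquitin ligase associated with the complex, had a coding and a 3' UTR peak on chromosome 7. The coding peak had 0, 0 and 9 reads with emetine and 0, 0 and 2 in the control. The 3' UTR peak, at chr7:135072933-135072966, had 0, 17 and 5 reads with emetine and 0, 16 and 0 in the control, a ratio of 1.53 (0.766 to 3.11). With 38 reads it was the best covered of the 42 peaks, and its largest library in each group had nearly the same number.

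The decapping genes had 15 peaks with 116 reads with emetine, against 140 in the control, a ratio of 0.921 (0.714 to 1.19). The log2 change was above 0 in 6 and below 0 in 9, with a median of -1.60. That total joined genes whose read totals differed in direction.

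DCP1A, the activating partner of the decapping enzyme, had 8 peaks on chromosome 3. Summed, they held 8, 39 and 34 emetine reads, against 5, 0 and 36 control reads. The log2 change was 2.61 (SE 1.42, adjusted p = 0.799 in limma over all genes), and the ratio of totals was 2.20 (1.49 to 3.28). The groups overlapped, because the normalised sum of control library 3, with 36 reads, lay above that of emetine library 1, with 8. Control library 2 held no read. Without control library 2 the log2 change was 0.64. DCP1A had the smallest p of the 11 gene sums, none of which was under 0.05 unadjusted, against 1.84% of all 6317 genes (1.08% with emetine higher and 0.76% with emetine lower).

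Within DCP1A the reads lay in separate blocks. Peak 4 in the 3' UTR, at chr3:53320487-53320518, had 0, 19 and 10 reads with emetine and none in the control, a log2 change of 3.57 (SE 2.12, adjusted p = 0.784 in limma) and at least 10.7-fold higher on the floor of 3 reads, with an interval that starts at 8.19. Its neighbour 10 nt upstream, peak 3, had 4, 6 and 1 reads with emetine and 4, 0 and 3 in the control, a ratio of 1.75 (0.618 to 5.31). Peak 7 had 0, 14 and 1 reads with emetine and none in the control, and peak 6, 34 nt upstream of it, had none with emetine and 1, 0 and 10 in the control. The 3' UTR as a whole held 69 reads with emetine, against 29 in the control, a ratio of 2.64 (1.69 to 4.23). Of the coding peaks, peak 1 had 4, 0 and 8 reads with emetine and 0, 0 and 1 in the control, and peak 2 had 11 reads of control library 3 alone. Peak 8, at the far end of the 3' UTR, had the same number of reads, 11, in the same library as peak 2, which it does not overlap.

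DCP2, the enzyme that hydrolyses the cap, had 5 peaks, all in the 3' UTR on chromosome 5. Their sum was 3, 31 and 1 emetine reads, against 6, 40 and 21 control reads. The groups overlapped, with a log2 change of -1.63 (SE 1.43) and a ratio of totals of 0.580 (0.374 to 0.886), a counting interval below 1. Without emetine library 3 the log2 change was -0.38. Peak 1, at chr5:112349799-112349821, went the other way. It had 3, 18 and 1 reads with emetine and 0, 0 and 1 in the control, a log2 change of 3.57 (SE 2.03, adjusted p = 0.784 in limma) and a ratio of 24.4 (3.95 to 1009). Of all member peaks it had the smallest p in the fit and was the one whose emetine libraries all lay above the control libraries. That separation is narrow: emetine library 3 and control library 3 each held 1 read, which is worth 2.81 normalised reads in the first and 2.43 in the second.

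The 4 peaks downstream of it in DCP2 had log2 changes below 0. Peak 2 had no read with emetine and 0, 10 and 2 in the control. Peak 3 had 0, 13 and 0 reads with emetine and 6, 3 and 0 in the control. For peak 3 the 2 measures differ in sign, with a log2 change of -1.18 and a ratio of totals of 1.60. The log2 change averages logarithms over libraries, and the control reads lay in 2 libraries where the emetine reads lay in 1. Peaks 4 and 5 had none with emetine, and 18 reads in control library 3 and 27 in control library 2. Peak 5, at chr5:112356242-112356269, had a log2 change of -2.09 (SE 2.05) and was at least 8.10-fold lower with emetine on the floor of 3 reads, with an interval of the ratio that ends at 0.163.

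EDC3 and EDC4 encode enhancers of decapping, of which EDC4 bridges DCP1A and DCP2 in human cells. Each had 1 peak with reads from control library 2 alone. The 3' UTR peak of EDC3, at chr15:74924908-74924945, had 17 reads there, and the coding peak of EDC4, at chr16:67916604-67916623, had 15. EDC3 was at least 5.10-fold lower with emetine on the floor of 3 reads, with an interval of the ratio that ends at 0.269. EDC4 was at least 4.50-fold lower, with an interval that ends at 0.310, and no other library held a read of either peak. Each peak was thus listed through these control reads, and neither bound is a test of a change.

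Taking the 11 genes by their summed peaks, 4 had a log2 change above 0 (CNOT3, CNOT4, CNOT6 and DCP1A) and 7 below, against 51.1% and 48.9% of all genes. The median was -1.35, beside 0.04 over all genes, and it rested on single libraries. Without emetine library 1 it was 0.21 (0.36 over all genes), with 6 genes above 0 and 5 below, and without control library 2 it was 0.0 (0.15 over all genes), with 5 above and 4 below. The libraries of the groups overlapped in all 11, while over all genes emetine lay above the control throughout in 2.99% and below it in 2.18%. None had an adjusted p under 0.05 in limma, nor did any of the 6317 genes tested (0.0%). Neighbouring peaks of a member gene had the same direction in 14 of 25 pairs (56.0%), against 53.1% of neighbouring pairs over all genes. Within 200 nt, it was 3 of 5 pairs (60.0%), against 53.2%.

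The RNA of these genes was measured in 1 library per group, so the ratios have no replicate check. On the log2 scale the emetine-to-control ratio ran from -0.48 to 0.63, with a median near 0 and 6 of 11 genes above 0, while 50.0% of all genes were. Over all genes the 5th and 95th percentiles were -0.63 and 0.59, and 10 of the 11 lay between them. CNOT3 lay above, with 307 RNA reads with emetine and 78 in the control and a log2 ratio of 0.63 (0.27 to 1.01). DCP1A had 542 and 160 RNA reads, a log2 ratio of 0.42 (0.16 to 0.68), and CNOT1 had 2449 and 876, a log2 ratio of 0.14 (0.03 to 0.25). The intervals of the other 8 genes, among them CNOT6 (920 RNA reads with emetine and 361 in the control) and DCP2 (2106 and 848), included 0. EDC4 had 58 and 32 RNA reads and the widest interval, from -1.13 to 0.18. For DCP1A and CNOT3, RNA and the total of Ago2 reads were both higher with emetine, with the 12 Ago2 reads of CNOT3 all in 1 library. For CNOT1, RNA was higher and the Ago2 total lower, with 5 reads against 8 and a ratio of 0.694 (0.179 to 2.41). The number of cells with a transcript and its amount per cell cannot be told apart in such bulk samples.

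**Figure D4:**
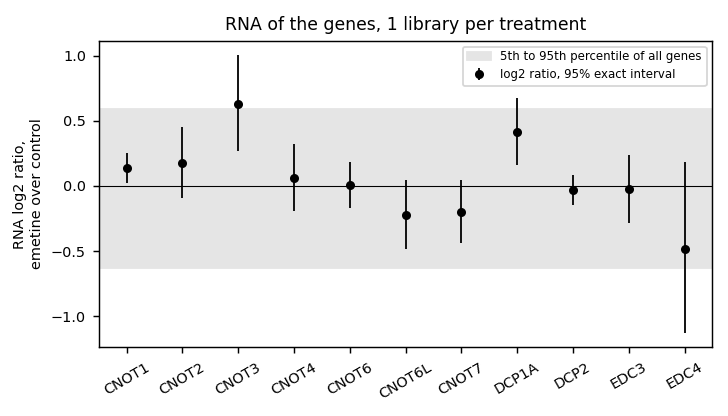
Log2 ratio of RNA reads, emetine over control, for the 11 genes (1 library per group), with exact binomial 95% intervals for counting error; the shaded band spans the 5th to 95th percentile of all genes, from -0.63 to 0.59. CNOT3 lies above the band, and the intervals of CNOT1, CNOT3 and DCP1A lie above 0.

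Other genes of deadenylation, decapping and 5'-to-3' decay were described from a list of 50 symbols, of which 37 had listed peaks, 297 in all. Summed by gene, 22 had a log2 change above 0 and 15 below, with a median of 0.21, and 0 had an unadjusted p under 0.05. The list included C2orf29, an older symbol of CNOT11, whose 1 peak had 0, 13 and 0 reads with emetine and 0, 0 and 2 in the control, and RQCD1, an older symbol of CNOT9, which had no listed peak. BTG2, an antiproliferative protein that binds and activates the Caf1 deadenylases, had 132, 702 and 650 reads with emetine and 103, 637 and 458 in the control, a ratio of 1.38 (1.27 to 1.49) and a log2 change of 0.48 (SE 0.31). Its relative TOB1 had 21, 147 and 161 reads with emetine and 13, 136 and 143 in the control, a ratio of 1.25 (1.07 to 1.47), and BTG3 a ratio of 1.13. The GW182 genes, whose proteins connect Argonaute to CCR4-NOT, had ratios of 1.12 for TNRC6A, 0.851 for TNRC6B and 0.830 for TNRC6C. The RNA log2 ratio was 0.45 (0.08 to 0.84) for BTG2, 0.51 (0.16 to 0.88) for TOB1 and 0.32 (0.13 to 0.51) for TNRC6A, and the intervals of BTG3, TNRC6B and TNRC6C included 0. The part of RNA in these Ago2 ratios was not tested. The libraries of the groups overlapped for all of these 6 genes, which were those with most reads on the list, and each adjusted p was 0.799 or more in limma. The poly(A)-binding protein gene PABPC1 was the one gene of the list whose libraries did not overlap, with 10, 31 and 49 reads with emetine and 25, 53 and 70 in the control, a ratio of 0.676 (0.514 to 0.884). Its RNA log2 ratio was -0.37 (-0.47 to -0.26). The log2 change of its Ago2 reads was -0.72 (SE 0.88), and 1 gene of 37 with such a pattern stands beside the 2.18% given above for all genes.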

How the data were processed

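The authors deposited 1 table, with a natural log average and a natural log ratio of emetine to control for each peak, relative to RNA; the headers do not state the log base, which was read from the values. The submitters' processing notes list Bowtie 0.12.8, DESeq and TopHat and the build hg19, without saying what each was used for. Neither the peak caller nor the start convention is stated in the sources used here.

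The average plus and minus 0.5 times the ratio gives 1 value per treatment, and whole reads per library and the RNA reads were recovered from these (22492 of 22506 peaks; tolerance 6e-14 on the sum of 3 libraries, 3e-13 for large values). Shifted values of single-peak genes matched by chance in 1 of 2528 with emetine and 2 of 2528 in the control. The recovery and the limma fit were tested on simulated data. The fit missed most of the changes put into the simulated peaks, so a count of 0 does not show that no peak changed. Each CLIP read counted as 8.86, 3.00 and 2.81 normalised reads with emetine, against 8.00, 2.82 and 2.43 in the control; an RNA read counted as 2.51 with emetine and 6.37 in the control.

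Log2(reads × value + 1) of the 6 libraries was fitted by treatment alone with limma 3.58.1 (trend) in R 4.3.3, over all peaks and over gene sums, with Benjamini-Hochberg adjustment. Intervals and the exact permutation test used scipy 1.17.1 in Python 3.11.15, and figures matplotlib 3.10.9. A total of 0 was set at 3 reads for bounds, which are no test of a change. The 14 peaks without recovered reads were left out. MicroRNA seeds were matched in GENCODE 3' UTRs, a description added after the data were seen, in place of the peaks, since no hg19 genome was used here; 7 of 8 transcripts were matched by RefSeq accession and that of CNOT6 was the one with the longest 3' UTR. Every member gene is named. Of its peaks, the rule named the one with most reads, and of peaks with at least 20 reads the 5 largest and 5 most negative changes; further peaks were named after their values were seen, as was PABPC1. Members, lists and rules were chosen with earlier results of these data known. Alternatives were other added constants, scaling by totals, read filters, limma-voom, depth class, identical peaks counted once and each library left out.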

Additional observations from a re-analysis of the deposited data

How the results depend on the processing

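No peak of any gene had an adjusted p under 0.05 in limma under any alternative run. Among member peaks, 1 had an unadjusted p under 0.05 with limma-voom (DCP1A peak 4, adjusted p = 0.757), and 0 to 2 with 1 library left out: DCP1A peak 4 without emetine library 1, CNOT6L peak 3 and DCP1A peak 1 without emetine library 2, and DCP2 peak 1 without emetine library 3. Among gene sums it was 1, DCP1A, with depth class as a covariate (adjusted p = 0.804 in limma), and 0 under the other alternatives. The difference in the members' share of reads ranged from -0.0364 to 0.0356 percentage points with 1 library left out, and was above 0 without emetine library 1 or control library 2. With 1 library left out, single changes were followed for the peaks named by the rule and for gene sums, not for the other member peaks. Among those followed, the log2 change turned for the CNOT6 5' UTR peak (-1.09 to 0.68) and CNOT6L peak 5 (-1.68 to 1.92). It also turned for the sums of CNOT6L (-2.89 to 0.43), CNOT7 (-1.99 to 1.62) and CNOT4 (-0.36 to 2.82). The cause was not tested. For 10 further values among those followed, peaks and gene sums counted together, the change became 0 once the sole library with reads was left out. The gene sums among them, of CNOT3, EDC3 and EDC4, each repeat a single peak. Each of the 16 member peaks with reads from 1 library has no read left once that library is removed. The sums of CNOT2 (-3.82 to -0.30), DCP1A (0.64 to 3.87) and DCP2 (-2.69 to -0.38) kept their sign. The median change ran from -1.16 to 0.0 over member peaks and from -1.37 to 0.21 over gene sums with 1 library left out, and that of gene sums was -0.31 with limma-voom. No paired analysis was possible, because the 3 antibodies, which the titles name in both groups, could not be assigned to the recovered libraries. At 11 to 38 reads per peak and a median standard error of 2.04, single-peak changes of the size seen could not be told from the spread between libraries.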
